A study of Flechtneria rotunda with 10 samples.

Results

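The step from late desiccation to the dry state was examined in Flechtneria rotunda, a unicellular green alga of desert origin, by RNA sequencing of drops of culture drying on a cover glass. Members were chosen by stage: the 2 libraries of dry drops were set against the 2 libraries of late desiccation, 4 of the 10 libraries of the series. Of the 17148 assembled genes in the count table, 10467 had enough counts to be tested and 6681 did not. All libraries came from strain SEV3VF49, cultured for 6 weeks in 150 mL of medium and placed as drops of 40 µL. Hydrated drops were taken straight after transfer. Early desiccation drops had lost 25% of their volume at 2.5 h, and late desiccation drops had lost 60% at 7.5 h. Dry drops were flat, had then been kept 11 h longer in the chamber, and were taken at about 24 h. Rehydrated drops had been wet again for 1 h. Dry and late drops therefore differed in elapsed time as well as in water, and these cannot be told apart. How many drops went into a library, and whether both libraries of 1 stage had their own flask, is not given in the sources used here, so the p-values reflect only how far these libraries spread, which may be technical spread.

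Green algae of deserts and soil crusts lose nearly all cell water between wettings. As water leaves, solutes and ions concentrate, photosynthesis stops, and membranes and proteins are exposed to damage. Desiccation-tolerant algae and plants are known for late embryogenesis abundant proteins, heat shock proteins, antioxidant enzymes and protective sugars, and for messenger RNA that is kept in the dry cell. The identifiers in the files are not paired with names or functions, so the genes below are grouped by size and direction of change, level, and the presence of reads, and no pathway is named.

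Late libraries held 3561519 and 5409194 counts and dry libraries 2034134 and 2211630. Levels are counts per 1000000 (CPM) of a library total scaled by TMM, a method that takes most genes as unchanged between libraries. The TMM-scaled totals were 4679416 and 7892753 at late desiccation and 1074718 and 1424665 in dry drops, so the late pair was 5.03 times as deep as the dry pair on this scale and 2.11 times as deep in plain counts. The late libraries stood apart in having counts for 16728 and 16972 genes, against 10742 to 13774 in each of the other 8 libraries. Across the 10467 tested genes the log2 difference between replicates had an SD of 0.50 in the late pair and 1.04 in the dry pair. These SDs include counting error, which weighs more in the shallower dry libraries, so they do not rank the pairs by reproducibility.

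In the main fit, on the TMM scale, somewhat more genes rose than fell between late desiccation and dryness, but not in all settings (below). Together they made up 42.7% of the tested genes. By its name the table holds genes called differentially expressed, so the 42.7% is not taken as a share of all genes of the alga. In dry drops 2341 genes were higher, 22.4% of those tested, and 2128 were lower, 20.3% (edgeR quasi-likelihood test, Benjamini-Hochberg adjusted p below 0.05, 2 libraries per stage). Rising genes changed by a median log2 fold of 1.81 (quartiles 1.28 to 2.69, median SE 0.31). For falling genes the median was -2.24 (quartiles -3.26 to -1.57, median SE 0.55). It was -1.95 when genes with 0 counts in dry drops were held at the value of 3 counts over the stage. The dry and late libraries did not overlap in CPM for 2332 of the rising and 2128 of the falling genes. Over all tested genes, both dry libraries lay above both late ones in 32.8% and below them in 44.6%. CPM are relative to a library's scaled total, so a change in cell number, or in RNA per cell common to all genes, cannot be seen in such bulk samples.

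The count fell when any late or dry library was left out, which leaves 1 library in that stage. The part of having fewer libraries in this fall was not tested. Median log2 fold changes over the genes tested in each fit were -0.34 without late replicate 1 and -0.28 without late replicate 2. They were -0.30 without dry replicate 1 and -0.49 without dry replicate 2, beside -0.29 in the main fit. The total of 4469 called genes was 2793 with late replicate 2 left out and 2945 with dry replicate 1 left out. The falling genes numbered 1109 without late replicate 2, 1101 without dry replicate 1 and 1412 without dry replicate 2.

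How the balance came out rested on the scale, and on which libraries and genes were fitted. Over the tested genes as a whole, the median log2 fold change was -0.29 on the TMM scale and -1.53 when libraries were scaled by their totals alone, a shift of 1.24. With totals alone 814 genes were higher in dry drops (7.78% of tested genes) and 5989 were lower (57.2%). Taking out the dependence of each library on gene length, a step that re-centres the libraries too, gave 2640 higher and 1491 lower genes. On the TMM scale, a fit of only the late and dry libraries gave 2333 higher and 2517 lower genes. With no filter on low counts 2202 were higher and 2214 lower. Of the 2341 rising genes, 814 kept their call with totals alone and 1527 were no longer called in either direction. All 2128 falling genes were also called lower with totals alone. That scale shifts the changes towards lower values, so this is no separate check of the falls. TMM takes most genes as unchanged, and whether that held for these genes was not tested. RNA per cell was not measured, so directions below are relative to the TMM scale unless both scales are named.

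**Figure D1:**
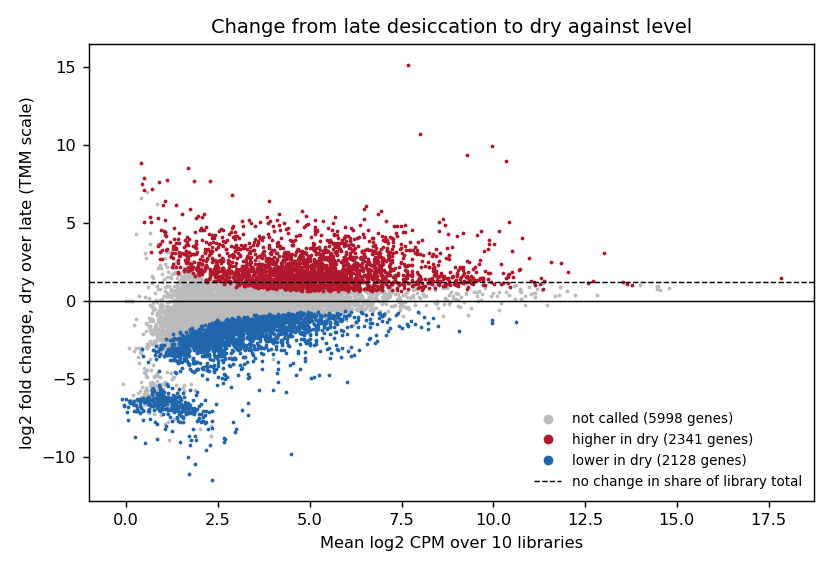
Log2 fold change from late desiccation to dry (y axis, TMM scale) against the mean log2 CPM over 10 libraries (x axis), 1 point per tested gene. The 2341 genes higher in dry drops lie mostly at middle and high levels, and the dashed line at 1.24 marks where a gene's share of the library total stayed the same.

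The 814 genes that were higher on both scales took up about 4 times the share of the counts in dry drops that they had before. They held 7.22% and 5.41% of the counts in the late libraries and 26.7% and 26.3% in the dry ones. Their share was 5.88% ± 0.81 in hydrated drops, 6.79% ± 1.15 at early and 6.32% ± 1.28 at late desiccation (n = 2 each, SD). It was 26.5% ± 0.27 in dry and 26.6% ± 8.76 in rehydrated drops (SD, n = 2 each). The genes were chosen by the contrast of dry against late libraries. Other stages did not enter that contrast, but they did enter the filter, the scaling and the estimate of the spread. Their median level was 19.7 and 13.8 CPM in the late libraries and 157 and 127 CPM in the dry libraries. It was 16.5 and 16.8 CPM in hydrated and 96.9 and 102 CPM in rehydrated libraries. By mean share hydrated, early and late drops lay together, and dry and rehydrated drops lay together above them. The 2 rehydrated libraries differed, at 20.4% and 32.8%, on either side of the dry ones. By median CPM both rehydrated libraries lay below both dry libraries and above the hydrated and late ones.

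All 2341 genes called higher on the TMM scale held 48.9% ± 2.32 of the counts at late desiccation and 74.5% ± 0.27 in dry drops (SD, n = 2 each). The 2128 falling genes held 8.51% and 10.1% of the counts in the late libraries and 0.96% and 1.25% in the dry ones. In hydrated libraries the falling genes held 5.598% and 6.46%, below the late values, and in rehydrated libraries 1.78% and 2.37%. Falling genes thus stood highest at late desiccation among the 5 stages in mean share. That share was 6.03% ± 0.61 in hydrated, 7.23% ± 1.24 at early and 9.32% ± 1.15 at late desiccation (n = 2 per stage, SD). The early and late libraries lie close, at 8.10% for early replicate 2 and 8.51% for late replicate 1. These genes were chosen for late levels above dry ones, so a high late and a low dry share follow in part from that choice.

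The most abundant transcripts were nearly the same at both stages. A single assembled gene took 21.6% and 20.2% of the late counts and 25.6% and 24.3% of the dry counts. It was called higher on the TMM scale (log2 fold change 1.51, SE 0.55, edgeR adjusted p = 0.0422) and not with totals alone (log2 fold change 0.24, edgeR adjusted p = 0.436). The 10 most abundant genes of each stage had 9 in common. They held 41.4% and 39.4% of the counts of the late libraries and 42.3% and 38.9% of the dry ones, so that the shares of the 2 stages overlapped.

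On the TMM scale, more rises were called among genes with high levels in the hydrated and early libraries, while falls were spread over all levels. Tested genes were split into 4 groups by their mean log2 CPM over the hydrated and early libraries, which enter neither side of the comparison, with no correction for length. From the lowest to the top group, of 2616 or 2617 genes each, 366, 338, 594 and 1043 genes rose and 459, 571, 607 and 491 fell. With groups by the mean over all 10 libraries the rises were 147, 220, 591 and 1383 and the falls 628, 665, 532 and 303, but there the dry and late levels help to set the group. The split by hydrated and early libraries was added after the data were seen. In that split median log2 fold changes ran from -0.87 in the lowest to 0.41 in the top group. With totals alone its groups held 187, 115, 188 and 324 rises and 1395, 1681, 1611 and 1302 falls. Genes of the lowest group had a median of 23 counts in a late library and 2.5 in a dry library, and 318 of them had 0 counts in both dry libraries, against 8 in the top group. The part of depth in this trend was not tested.

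Rises ranged from under 2-fold to over 32-fold, and each class of size was followed by its median level, in CPM not corrected for gene length. Genes rising by 2- to 4-fold, 1088 in number, had median levels of 22.9 and 20.9 CPM in the late libraries and 63.3 and 55.8 CPM in the dry ones. The 292 genes rising by 8- to 16-fold went from 16.5 and 10.3 CPM to 148 and 117 CPM. The 114 genes rising by 16- to 32-fold went from 14.4 and 6.21 CPM to 276 and 236 CPM, and the 55 genes with a fitted rise of 32-fold or more from 3.42 and 1.01 CPM to 163 and 141 CPM. In these last 2 classes late replicate 1 stood above late replicate 2 by more than 2-fold in median level. In the 16- to 32-fold class the share was 1.09% in late replicate 1 and 0.40% in late replicate 2, against 7.06% and 6.12% in the dry libraries. In the class of 32-fold or more it was 0.17% and 0.096%, against 4.22% and 3.71%. Of the genes with a fitted rise of 32-fold or more, some had 0 counts at late desiccation, and with these held at 3 counts over the stage 48 reached 32-fold.

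After rewetting each of these classes stood between its hydrated and its dry medians. Genes rising by 2- to 4-fold had 22.9 and 22.3 CPM in hydrated and 51.8 and 48.1 CPM in rehydrated libraries. Those rising by 8- to 16-fold had 12.3 and 13.9 CPM in hydrated and 86.4 and 85.05 CPM in rehydrated libraries. In the 16- to 32-fold class the medians were 7.92 and 7.85 CPM in hydrated and 126 and 166 CPM in rehydrated libraries, and in the class of 32-fold or more they were 3.87 and 4.38 CPM and 55.4 and 67.6 CPM. The last values lay below the dry medians of 163 and 141 CPM.

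**Figure D2:**
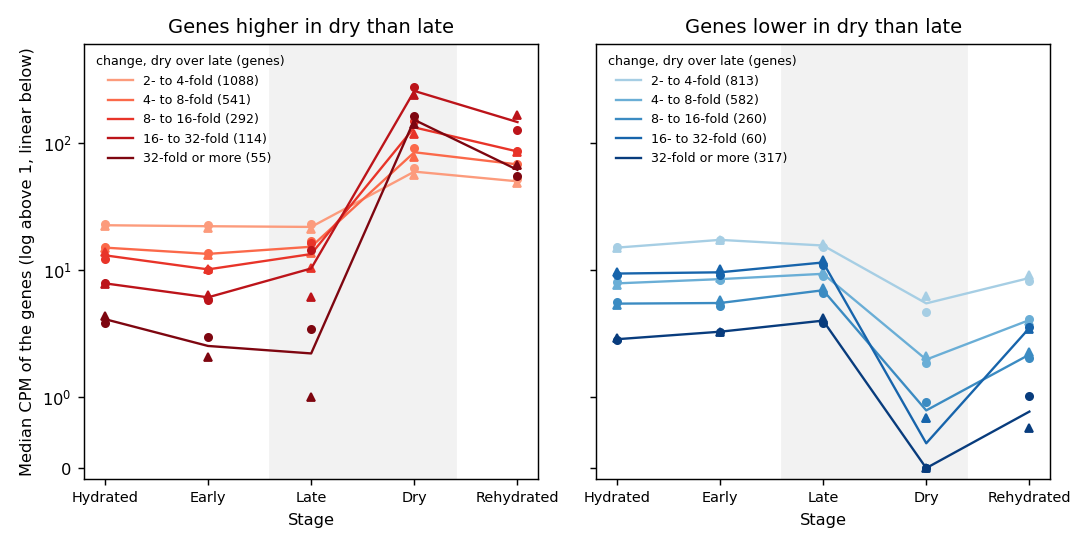
Median CPM of genes grouped by the size of their change from late desiccation to dry (y axis, log above 1 and linear below) at the 5 stages (x axis), with circles for replicate 1, triangles for replicate 2 and lines through the mean of the 2. Rising classes (left) lie between their hydrated and dry levels after rewetting, as in the 16- to 32-fold class with 126 and 166 CPM in rehydrated and 276 and 236 CPM in dry libraries, and falling classes (right) rise part of the way back.

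Falling genes, chosen for late levels above dry ones, had similar medians in hydrated, early and late libraries. Their median was 9.50 and 9.67 CPM in hydrated, 10.5 and 10.6 CPM at early and 10.5 and 11.5 CPM at late desiccation, and then 1.86 and 2.81 CPM in dry libraries. In rehydrated libraries it was 4.62 and 4.58 CPM, above both dry values and below both hydrated ones. Among falling genes, 813 changed by 2- to 4-fold, with medians of 15.2 and 16.1 CPM at late desiccation and 4.65 and 6.32 CPM in dry drops. Falls of 4- to 8-fold numbered 582, from 8.98 and 9.76 CPM to 1.86 and 2.11 CPM. A fitted fall of 32-fold or more was given to 317 genes, of which 306 had 0 counts in both dry libraries. With such genes held at 3 counts over the dry stage, 15 falls reached 32-fold and 1016 reached 4-fold. For nearly all of the largest falls, then, the depth of the dry libraries set the size that could be measured.

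Dry drops had no reads at all for a large part of the genes seen in the late libraries, which had counts for more genes than any other libraries. The part of that in the losses was not tested. Of 16622 genes with counts in both late libraries, 9683 had counts in both dry libraries (58.3%), 2504 in one of them (15.1%) and 4435 in neither (26.7%). The 4435 genes were 25.9% of the table. Most had few counts to lose, with a median of 13 over the 2 late libraries (quartiles 10 to 19). They held 0.85% and 1.002% of the counts of the late libraries. Among genes with 2 to 9 counts over the late libraries 61.2% were lost, among those with 10 to 19 counts 71.0%, among those with 20 to 49 counts 28.2%, among those with 50 to 99 counts 5.03%, and among those with 100 or more 0.77%, which were 46 of 5972 genes.

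Depth decides how far such a loss can be read. A count of 0 in both dry libraries allows a level of up to 1.2003 CPM, taking 3 counts over the stage on the TMM scale, for counting error only. Of the 4435 genes, 1605 (36.2%) had a late level above that limit on the TMM scale, and 4262 when totals alone set the scale. A loss of more than 4-fold at the limit was seen for 115 genes on the TMM scale and 635 with totals alone. With all libraries thinned to the smallest total 3913 genes lost their reads, and with libraries thinned to the smallest TMM-scaled total 2368 did. With at least 10 counts asked of each late library, 580 genes remained lost.

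**Figure D3:**
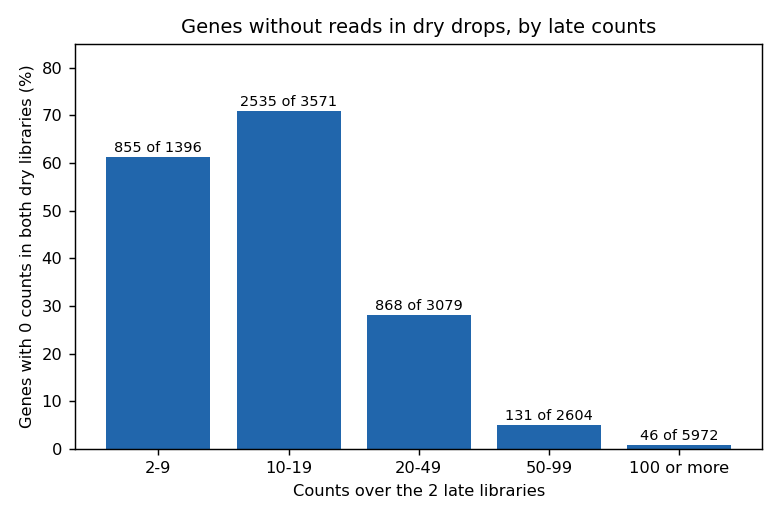
Share of genes with 0 counts in both dry libraries (y axis, percent) among genes with counts in both late libraries, grouped by their counts over the 2 late libraries (x axis), with the numbers of genes above the bars. The share is 61.2% at 2 to 9 late counts, 71.0% at 10 to 19 late counts and 0.77% at 100 or more.

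Only 418 of the 4435 genes passed the filter on low counts, which a gene at 0 in dry drops passes through its counts at other stages. Of these, 306 were called lower in dry drops and 112 were not. Over all tested genes 20.3% were called lower. Asking for 0 counts in both dry libraries fixes the direction beforehand, so these calls are no separate support for the loss. The 306 genes were at least 1.33-fold to at least 97.6-fold lower at the limit, with a median bound of 3.31-fold. They held 0.23% and 0.29% of the late counts. In hydrated libraries 256 of the 306 had counts in both, in early libraries 263. In rehydrated libraries 157 had counts in both, 85 in one and 64 in neither. Their median levels were 2.81 and 2.92 CPM in hydrated, 3.85 and 4.05 CPM in late and 1.03 and 0.57 CPM in rehydrated libraries. These genes were thus already weakly expressed in wet drops, which asking for 0 counts in both dry libraries favours. Their rehydrated medians lay below the hydrated and late ones, but rested on few counts, with a median of 1.5 per rehydrated library.

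Of the 4435 genes, 1274 (28.7%) had counts in both hydrated libraries and 1937 (43.7%) in neither. Among all genes with reads in both late libraries, the shares were 73.5% and 14.4%. In rehydrated libraries 644 (14.5%) of the lost genes had counts in both and 2145 (48.4%) in neither. Among all genes with reads in both late libraries, 66.9% had counts in both rehydrated ones and 15.7% in neither. Those genes had a median of 54 counts over the late libraries, against 13 for the lost genes. The shares are therefore not matched for level, and the part of low counts in them was not tested. For 852 of the lost genes the late libraries were the only ones of the 10 with counts, and 6 of these 852 were tested.

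The opposite case was rare. Counts in both dry libraries and none in either late library were found for 24 genes, of which 10 were tested and 9 called higher. Over all tested genes 22.4% were called higher, and here the choice of genes fixes the direction too. With late replicate 1 left out the number was 63, with late replicate 2 left out 83, and with libraries thinned to the smallest TMM-scaled total 125. At least 10 counts in each dry library were found for 4 of the 24. All but 2 of the 24 genes, 22 in number, share an assembly cluster with a gene that had late counts, against 26.8% of all genes that share a cluster with any other gene. The assembler puts similar sequences in a cluster, and reads can be divided between its genes in ways that differ from library to library.

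TRINITY_DN37800_c0_g1 had the largest fitted rise among genes with counts in each late library. It had 6 and 19 counts in the late libraries and 4181 and 3782 in the dry ones, or 1.28 and 2.41 CPM against 3890 and 2655 CPM. The log2 fold change was 10.70 (SE 0.49, edgeR adjusted p = 4.70e-07), and the ratio of dry to late was 1602 with a 95% counting interval of 1085 to 2477. Late libraries were the exception for this gene: it stood at 360 and 307 CPM in hydrated, 462 and 678 CPM in early and 726 and 816 CPM in rehydrated libraries. Dry drops were above hydrated ones by a log2 fold change of 3.29 (SE 0.34, edgeR adjusted p = 1.15e-05). Dry drops were thus above both late and hydrated drops for this gene. No other gene of the table shares its cluster.

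TRINITY_DN6519_c0_g1 had the highest dry level among rising genes with 0 counts at late desiccation. It had 1887 and 1707 counts in dry drops (1756 and 1198 CPM) and was at least 6026-fold higher than at late desiccation, taking 3 counts over the late stage (edgeR adjusted p = 6.11e-07). It too was present elsewhere, with 1346 and 1355 counts in hydrated, 2955 and 1897 in early and 2362 and 1769 in rehydrated libraries. Another gene of its assembly cluster had late counts, and the cluster as a whole had 7872 and 13224 counts in late and 2686 and 2664 in dry libraries. The cluster sum did not pass the test (log2 fold change 0.44, SE 0.33, edgeR adjusted p = 0.276), so the rise of the single gene is uncertain.

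TRINITY_DN28049_c0_g2 had the highest late level among genes that fell to 0 counts in both dry libraries. It had 518 and 955 counts at late desiccation (111 and 121 CPM) and was at least 97.6-fold lower in dry drops at the limit of 3 counts (edgeR adjusted p = 6.41e-05). Before and after, it was low: 0 and 16 counts in hydrated, 12 and 8 in early, and 12 and 8 in rehydrated libraries. The sum over its cluster, 563 and 1059 counts late and 4 and 8 dry, also fell (log2 fold change -4.66, SE 0.37, edgeR adjusted p = 1.02e-08).

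TRINITY_DN36310_c0_g1 had the largest fitted fall among genes with counts in each dry library, which had 3 and 1. At late desiccation it had 1007 and 1569 counts (215 and 199 CPM). The log2 fold change was -6.97 (SE 1.04, edgeR adjusted p = 0.000235), and late was 128 times dry with a 95% counting interval of 49.9 to 470. Its other stages were low, at 8.80 and 11.7 CPM in hydrated, 5.98 and 0.30 CPM in early and 17.9 and 0.57 CPM in rehydrated libraries. The cluster sum fell by 5.44 on the log2 scale (SE 0.40, edgeR adjusted p = 5.49e-09). The 2 named falls were thus of genes whose late libraries stood above those of every other stage.

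**Figure D4:**
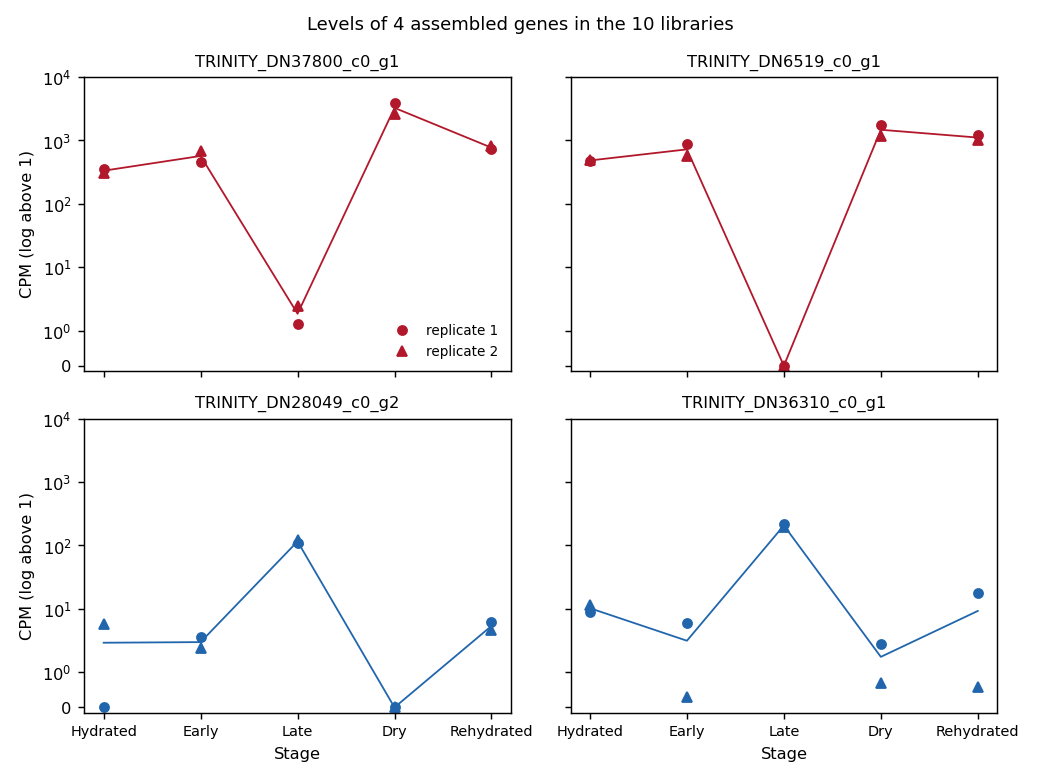
CPM (y axis, log above 1 and linear below) of the 4 named genes at the 5 stages (x axis), with circles for replicate 1, triangles for replicate 2 and lines through the mean. The 2 rising genes (top) are low at late desiccation alone, at 1.28 and 2.41 CPM and at 0 counts, and the 2 falling genes (bottom) are high at late desiccation alone, at 111 and 121 CPM and at 215 and 199 CPM.

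Over the called genes as a group, late levels lay near the hydrated and early ones. The median change of rising genes against hydrated drops, on the log2 scale, was -0.05 in late and 1.80 in dry drops, and that of falling genes was 0.32 and -1.96. Late against early desiccation had medians of 0.07 for rising and 0.04 for falling genes. These comparisons share libraries with the one that chose the genes, and their values are given side by side only.

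Rehydrated against hydrated drops shares no library with dry against late, so the genes called between late and dry could be looked up in libraries outside that contrast. All 10 libraries entered the filter and the scaling. Over all tested genes 22.0% were higher in rehydrated than in hydrated drops (2307 genes) and 20.2% were lower (2116 genes). Of the 2341 genes that rose from late to dry, 1532 (65.4%) were higher in rehydrated than in hydrated drops and 86 (3.67%) were lower. Those 1532 genes were 66.4% of the genes higher in rehydrated drops. Of the 2128 genes that fell, 834 (39.2%) were lower in rehydrated drops and 81 (3.81%) were higher, and the 834 were 39.4% of the genes lower there. All stages share 1 estimate of the spread in the fit.

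The share of rises found in both comparisons ran from 47.0% to 89.5% over the classes of size, and that of falls from 31.2% to 56.7%. Of genes rising by less than 2-fold 47.0% were called higher in rehydrated against hydrated drops, of those rising by 2- to 4-fold 53.6%, of those rising by 4- to 8-fold 81.0%, by 8- to 16-fold 84.6%, by 16- to 32-fold 89.5%, and by 32-fold or more 80.0%. For falls the shares were 31.2%, 40.8%, 40.6%, 36.2%, 56.7% and 34.1% in the same order. The median log2 fold change of rehydrated against hydrated was 1.495 for rising genes (quartiles 0.53 to 2.70), -0.97 for falling genes (quartiles -2.01 to -0.13) and -0.25 for genes not called in dry against late. Across the 10467 genes Pearson's correlation of the 2 log2 fold changes was 0.53, as a description, since genes are not independent replicates.

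**Figure D5:**
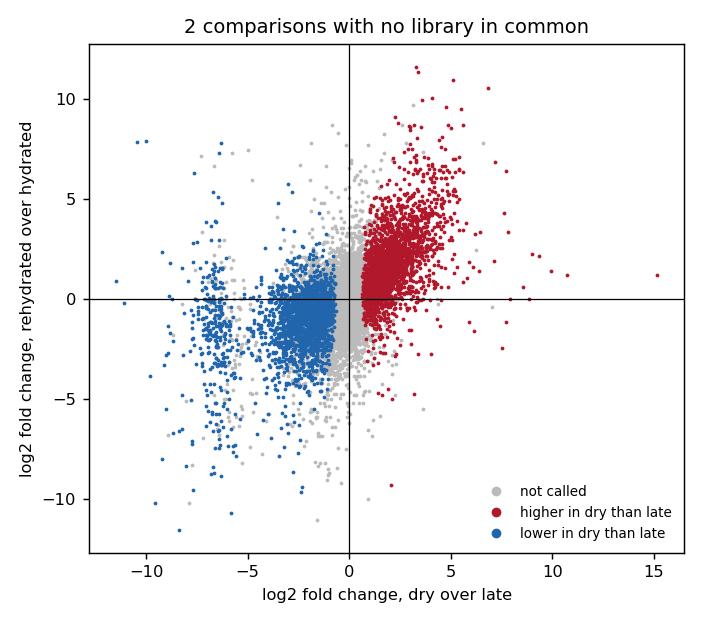
Log2 fold change of rehydrated over hydrated drops (y axis) against that of dry over late drops (x axis), 1 point per tested gene, coloured by the call in dry against late. Genes higher in dry drops lie mostly above 0 on the y axis, with a median of 1.495, and genes lower in dry drops mostly below it, with a median of -0.97.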

How the data were processed

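Per the labels' protocols, ribosomal RNA of the nucleus, organelles and bacteria was removed with kit oligos and 105 custom ones. Tools named in the submitters' processing notes, without roles, are RSEM 1.2.28, Bowtie2 2.2, Trimmomatic 0.35, CASAVA 1.4 and DESeq2. The identifiers have the form given by the Trinity assembler. The deposited expected counts are estimates per assembled gene (10.1% to 19.7% of values not whole) and are not normalised. The second deposited table holds a signal scaled by TMM by the authors, per the table's name. That name calls the genes differentially expressed, by a choice not given in the sources used here, so shares are not of all genes of the alga. A choice made on these same libraries would have set some of the calls beforehand.

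Expected counts were rounded. edgeR 4.0.16 (R 4.3.3) filtered genes (filterByExpr, minimum count 10, minimum total 15), applied TMM and fitted a quasi-likelihood model to the 10 libraries, with the 5 stages as groups and no covariate. SE is the size of the change divided by the root of F. Removed genes held 0.155% to 1.17% of a library's counts. Alternatives used limma 3.58.1 and DESeq2 1.42.0. The test was tested on simulated data. Relative gene length came from the ratio of the 2 tables. Counting intervals are exact (95%) and cover counting error only, as do limits of 3 counts.

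Named genes passed the test at 0.05, had a mean of 5 CPM or more in the higher stage and libraries that did not overlap. They were the largest rise with counts in each late library, the highest dry level among rises from 0 counts, the highest late level among falls to 0 counts, and the largest fall with counts in each dry library. Members, lists and this rule were chosen with earlier results of these data known. Gene lists by function were not used, since no names were given.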

Additional observations from a re-analysis of the deposited data

How the results depend on the processing

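Of 4469 called genes, 2341 higher and 2128 lower, the following numbers were given by other settings. Library totals alone gave 6803 (814 higher, 5989 lower). A 2-fold minimum gave 2135 (1300 higher, 835 lower). DESeq2 gave 1305 lower. limma on the deposited normalised signal covered 17148 genes, against 10467 in the main fit. With log2(value + 1) it gave 8187 with 6267 lower, and with a pseudocount of 0.1 it gave 7723 with 5934 lower. These numbers of calls moved by more than 1.5 times. With log2(value + 1) and a minimum mean signal of 1, limma covered 12696 genes and did not move that far. It then gave 4870 (1844 higher, 3026 lower). Leaving out 1 library gave 2793 to 3394 called, 1684 to 1982 higher and 1101 to 1433 lower. Genes losing all reads numbered 580 with at least 10 counts in each late library and 2368 thinned to the smallest TMM-scaled total (added after the data were seen), and 4474 to 6060 with 1 library left out. Genes with reads in dry drops and none at late desiccation numbered 4 (at least 10 counts in each dry library), 49 (thinned to the smallest total) and 125 (smallest TMM-scaled total), and 32 to 83 with 1 library left out. The cause was not tested. Summed over assembly clusters (added likewise), 2258 rose and 2151 fell among 9359. The 4 named genes kept direction and call in 17 of 17 settings each, cluster sums apart. Deviations of same-numbered libraries correlated at 0.00042 to 0.14, above 0 in 10 of 10 stage pairs but above 0.1 in 1, so the numbers were not taken to pair samples. The replicate block gave 4475 called genes (2397 higher, 2078 lower) and 2383 calls shared with rehydrated against hydrated, beside 2366. Shared calls with 1 library left out numbered 1651 to 1914. Dry libraries, with the smallest scaled totals, limit what can be said of genes below 1.2003 CPM.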

Other observations

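Falling genes were longer than rising ones by the relative length that the 2 tables give, in units of the median gene. The median relative length was 1.31 for genes lower in dry drops (quartiles 0.92 to 1.79), 1.002 for genes higher in dry drops (quartiles 0.63 to 1.498) and 0.97 for genes not called (quartiles 0.67 to 1.37). From the shortest to the longest of 4 groups of tested genes, falls numbered 275, 417, 597 and 839, and rises 698, 528, 526 and 589. The longer groups also had more counts, with a median of 20 in a dry library for the longest group and 7.5 for the shortest, and the part of depth was not tested. With each library's trend with length removed, 1436 of the 2128 falling and 2243 of the 2341 rising genes kept their call.

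Genes of an assembly cluster mostly went the same way. Of 277 clusters with at least 2 called genes, 187 held only rises, 49 only falls and 41 both. Rising genes more often had a cluster partner in the table, 37.3% of them, against 23.1% of falling genes and 27.8% of genes not called. Reads may be split between such partners, so these genes are not independent. Among the 4435 genes without reads in dry drops, 842 had a cluster partner with dry counts and 3593 were in clusters with none.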
